A study of Rattus norvegicus with 2 samples.

Results

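The 10 genes described here encode enzymes that build fatty acids and pass them on to glycerolipids (Acly, Acaca, Acacb, Fasn, Elovl6, Scd1 and Gpam) and regulators of that pathway (Srebf1, Mlxipl and Thrsp). They were chosen as the spots whose gene symbol on the array was exactly one of these names, which gave 13 spots among 21766 library spots, and 10 genes among the 17157 named genes with a signal above background. Liver RNA came from male adult Wistar rats, all made diabetic with a single dose of streptozotocin, 65 mg/kg, after an overnight fast of 12 h. Animals that exceeded 200 mg/dl of blood glucose at 72 h received γ-conglutin, a protein of lupin seeds, at 120 mg/kg in 0.9% NaCl over 7 days, or the NaCl vehicle without it. Equal RNA amounts from 5 rats made up each pool, and both pools were hybridised together on each of 2 arrays of mouse oligonucleotide probes. On array 1 the vehicle pool was labelled with Alexa555 and the γ-conglutin pool with Alexa647, and on array 2 the dyes were exchanged. No rats without diabetes were compared here.

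The pathway turns surplus carbohydrate into fat. ATP citrate lyase (Acly) makes cytosolic acetyl-CoA, the acetyl-CoA carboxylases (Acaca and Acacb) convert it to malonyl-CoA, and fatty acid synthase (Fasn) assembles palmitate, which Elovl6 lengthens and Scd1 desaturates before Gpam starts glycerolipid assembly. In liver, insulin raises the transcription of these genes through SREBP-1c, a product of Srebf1, and glucose does so through ChREBP, the product of Mlxipl. Streptozotocin destroys pancreatic beta cells, so both pools came from rats of a model that is short of insulin.

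Each treatment was 1 pooled RNA sample and the 2 arrays are technical repeats. The spread between rats is therefore not measured, and p-values are not given. Every ratio is on the log2 scale, with γ-conglutin in the numerator and vehicle in the denominator, after background correction and loess normalization, and errors are SDs over the 2 arrays. In pooled liver RNA, fewer cells of a type and less RNA per cell cannot be told apart. Over all genes, the ratios on the 2 arrays had a Pearson's r of -0.45, a description across genes that share both hybridisations. The SD across genes was 0.12 for the mean ratio and 0.19 for the difference between dyes.

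No member differed between the pools by 1.5-fold on both arrays. Of the 10, 0 were higher and 0 were lower by that rule, beside 0% of the 17157 genes in each direction. At a log2 ratio of at least 0.32 on both arrays the members again numbered 0 higher and 0 lower, beside 0.00583% and 0.28% of genes. The mean ratios of the members ran from -0.17 for Gpam to 0.14 for Mlxipl, and all 10 lay within the central 95% of genes, from -0.30 to 0.19. Their median ratio was 0.03, with 0.02 on array 1 and 0.02 on array 2, beside 0.01 over all genes, and 6 of 10 had a mean above 0, beside 53.9% of all genes. The largest ratio of a member spot on either array was 0.25 in size.

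The sign of the ratio was shared by the arrays for 4 of the 10 members, beside 32.3% of genes. Positive ratios on both arrays were found for Mlxipl and Acacb, 2 of 10 beside 17.1% of genes, and negative ratios for Gpam and Thrsp, 2 of 10 beside 15.3%. The other 6 of 10 members had opposite signs on the arrays, which is the same as a mean closer to 0 than to either array.

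**Figure D1:**
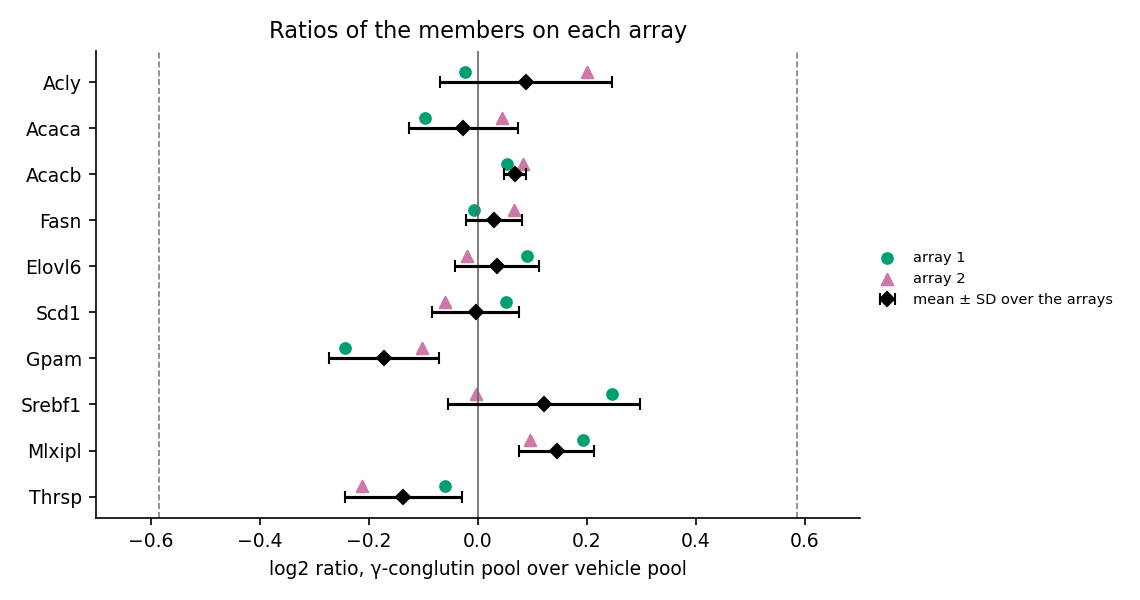
Ratios of the 10 members on the log2 scale (x axis, γ-conglutin over vehicle), with circles and triangles for arrays 1 and 2, diamonds with bars for the mean ± SD over the 2 arrays and dashed lines at 1.5-fold. Both arrays lie on the same side of 0 for Acacb, Gpam, Mlxipl and Thrsp, and no point reaches a dashed line.

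The rat promoters of these 4 members are printed because they are the ones whose ratios had the same sign on both arrays. Each window holds 250 bases before and 50 after the gene's start, from RefSeq on GRCr8, read 5′ to 3′ on the gene's strand, which is the minus strand for all 4. Capitals mark E-boxes (CANNTG, the letters that basic helix-loop-helix factors bind) and CCAAT boxes on either strand, and in Gpam the E-box and the CCAAT box overlap. For Mlxipl the first of its starts in the table is shown.
Mlxipl, chr12:27213611-27213910: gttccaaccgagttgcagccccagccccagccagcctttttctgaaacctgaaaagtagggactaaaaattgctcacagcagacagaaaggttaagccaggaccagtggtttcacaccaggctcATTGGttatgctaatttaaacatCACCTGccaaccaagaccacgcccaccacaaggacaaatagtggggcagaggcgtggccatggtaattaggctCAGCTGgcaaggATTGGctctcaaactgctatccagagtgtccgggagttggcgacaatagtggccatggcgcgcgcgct
Acacb, chr12:48138165-48138464: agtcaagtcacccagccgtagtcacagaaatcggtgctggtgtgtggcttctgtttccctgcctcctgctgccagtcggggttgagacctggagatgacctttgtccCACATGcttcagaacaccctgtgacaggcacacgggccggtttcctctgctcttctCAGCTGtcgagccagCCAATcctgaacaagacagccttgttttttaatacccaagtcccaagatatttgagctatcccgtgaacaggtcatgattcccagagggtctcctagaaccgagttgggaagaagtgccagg
Gpam, chr1:264175862-264176161: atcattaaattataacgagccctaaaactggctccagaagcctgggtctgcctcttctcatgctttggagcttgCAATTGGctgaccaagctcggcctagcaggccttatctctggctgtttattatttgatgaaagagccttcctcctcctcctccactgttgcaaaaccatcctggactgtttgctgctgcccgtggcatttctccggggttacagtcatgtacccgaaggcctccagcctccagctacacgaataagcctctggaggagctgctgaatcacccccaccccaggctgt
Thrsp, chr1:161138915-161139214: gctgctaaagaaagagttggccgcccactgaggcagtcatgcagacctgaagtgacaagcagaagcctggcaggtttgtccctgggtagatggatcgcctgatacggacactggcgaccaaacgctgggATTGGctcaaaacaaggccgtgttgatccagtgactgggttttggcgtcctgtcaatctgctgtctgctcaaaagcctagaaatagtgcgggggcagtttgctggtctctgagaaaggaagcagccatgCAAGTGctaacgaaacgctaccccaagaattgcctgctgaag

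Promoter windows were found for 7 of the 10 members, 9 windows in all, with Scd1 matched to its rat symbol Scd. The 2 windows of Mlxipl start 4 bases apart and hold the same sites, and Srebf1 also has 2 windows. An E-box was found for 7 of the 7 members and a CCAAT box for 6, or in 9 and 8 of the windows, beside 72.1% and 37.5% of 33469 rat promoter windows of the same length. The palindrome CACGTG was in 0 of the 9 (6.42% of all windows), and TCACNCCAC, the letters searched for the sterol regulatory element that SREBP proteins bind, in 0 of the 9 (1.12% of all windows). Such matches describe letters in a window and were not tied to binding or to the ratios.

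Before normalization, brightness followed the dye. On array 1 the vehicle pool, in Alexa555, was the brighter raw channel at 13 of the 13 member spots, and on array 2 the γ-conglutin pool, then in Alexa555, at 12 of 13. Among all library spots these shares were 82.7% and 86.8%. The exception was Thrsp on array 2, with a raw intensity of 11973 for vehicle and 11833 for γ-conglutin. The signals below are raw intensity minus background, in arbitrary units, and are not normalized for dye, so that only the log2 ratios compare the pools. Of the 13 spots, 12 exceeded the 95th percentile of empty spots (30.1 to 52.2 by channel) in all 4 channels, as did 94.0% of library spots.

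**Figure D2:**
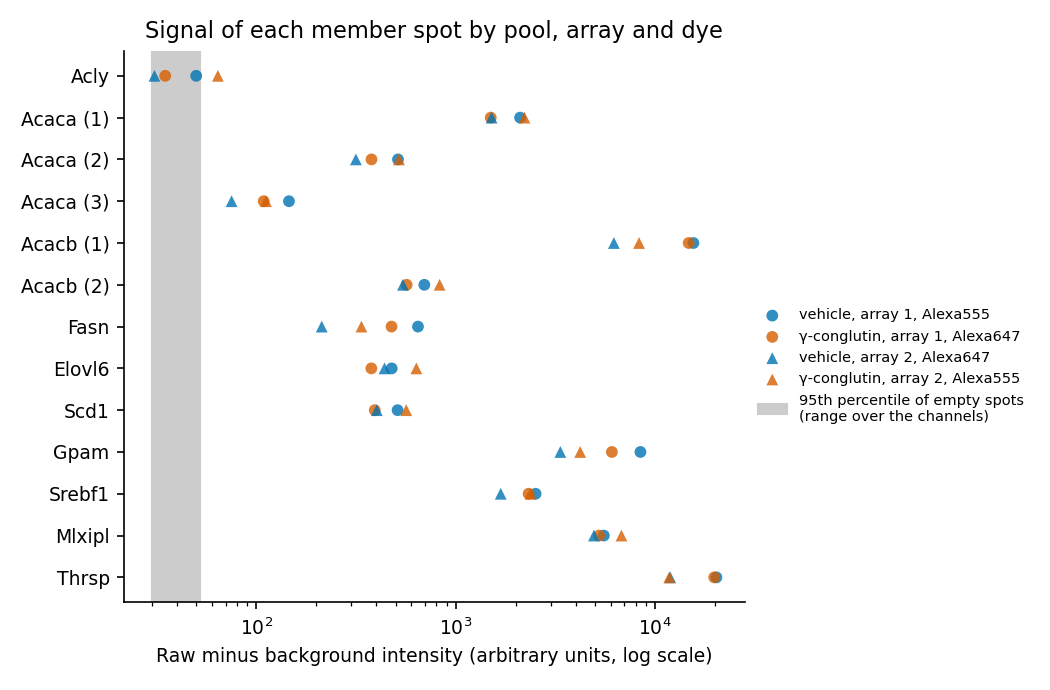
Raw minus background intensity (arbitrary units, log scale) of each member spot, numbered from the brightest where a gene has several, in blue for vehicle and orange for γ-conglutin, with circles for array 1, triangles for array 2 and a grey band over the empty-spot limits, 30.1 to 52.2. Acly lies at that band, and the 2 Acacb spots lie far apart in every channel.

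At the start of the pathway, Acly could hardly be measured. Its signal was 49.9 for vehicle and 34.9 for γ-conglutin on array 1, and 30.8 and 64.1 on array 2, where the vehicle value was below the empty-spot limit of 36.0. Its ratio was -0.02 on array 1 and 0.20 on array 2, a mean of 0.09 ± 0.16 (SD over 2 arrays).

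Acaca, which encodes the cytosolic carboxylase that supplies malonyl-CoA for synthesis, had 3 spots, each from a different cDNA record. The brightest gave 2104 for vehicle and 1499 for γ-conglutin on array 1, and 1514 and 2213 on array 2. Its ratio was -0.03 ± 0.10, with opposite signs on the 2 arrays. The other 2 spots had mean ratios of 0.07 ± 0.10 and 0.01 ± 0.05, also with opposite signs on the arrays, so no Acaca spot gave a difference larger than the spread between arrays. The spot at 0.07 had uneven pixels, with an SD of up to 48.3% of the mean in a channel.

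Acacb encodes the carboxylase at the mitochondrial outer membrane, whose malonyl-CoA restrains fatty acid oxidation. Averaged over its 2 spots its ratio was 0.05 on array 1 and 0.08 on array 2, a mean of 0.07 ± 0.02. The 2 spots carry the same accession, yet the brighter gave 15585 for vehicle and 14758 for γ-conglutin on array 1, and 6217 and 8314 on array 2, while the dimmer gave 696.0 and 567.5, then 543.7 and 830.4. Their brightness over all channels differed 14.9-fold. The brighter spot alone had opposite signs on the arrays (0.04 ± 0.08) and the dimmer the same sign on both (0.09 ± 0.04), so the shared sign for Acacb rests on the average.

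Such a gap was common on these arrays. Across 25 pairs of spots with 1 accession and 1 gene symbol, the median gap in brightness was 12.7-fold and 16% of pairs were within 2-fold, and 11 of the 25 pairs had a gap at least as large as that of Acacb. Whether the 2 spots of a pair carry the same oligonucleotide is unknown here. Whether the gene names match the printed grid at every spot was not tested either. How well the mouse probes bind the rat RNA of the named gene was also not tested. Each value, here and in all other paragraphs, therefore belongs to the spot that carries the name.

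Fasn gave 646.7 for vehicle and 476.6 for γ-conglutin on array 1, and 212.7 and 336.5 on array 2. Its ratio was -0.01 on array 1 and 0.07 on array 2 (mean 0.03 ± 0.05), of opposite sign and close to 0 on each. The enzymes that modify its product also had opposite signs on the arrays. Elovl6 had 477.5 and 377.4 on array 1 and 439.5 and 634.8 on array 2, vehicle first, with a ratio of 0.03 ± 0.08. Scd1 had 511.1 and 392.6 on array 1 and 402.1 and 564.7 on array 2, with a ratio of -0.00 ± 0.08. For Elovl6 and for Scd1, array 1 gave the positive ratio and array 2 the negative one.

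Gpam, the mitochondrial acyltransferase gene at the entry to glycerolipid synthesis, had the lowest ratio of the members. Its signal was 8450 for vehicle and 6076 for γ-conglutin on array 1, and 3349 and 4213 on array 2. Its ratio was -0.24 on array 1 and -0.10 on array 2, a mean of -0.17 ± 0.10, or a difference of -11.3% from the vehicle pool. Of all genes, 12.8% had a mean ratio at least as far from 0. When loess was fitted within print-tip blocks, the array 2 ratio was 0.03 and the array 1 ratio -0.41, so the same sign on both arrays was lost while the mean was -0.19. The shared sign was also lost without normalization, with the deposited net intensities and with the series table. There array 2 gave 0.33, 0.07 and 0.09.

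Among the 7 enzymes, 4 had a mean ratio above 0, beside 53.9% of all genes, and the median of the enzymes was 0.03. Brightness itself changed between the arrays at several of their spots: relative to array 1, array 2 had 0.474 of the brightness at the brighter Acacb spot, 0.482 at Fasn and 0.524 at Gpam, over both dyes. These 3 lay below the 5th percentile, 0.554, of the 20462 library spots above the empty-spot limit, whose median was 0.949. The part of this in the ratios was not tested.

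Among the regulators, Mlxipl had the highest ratio of all 10 members. Its signal was 5535 for vehicle and 5239 for γ-conglutin on array 1, and 4939 and 6785 on array 2. Its ratio was 0.19 on array 1 and 0.10 on array 2, a mean of 0.14 ± 0.07, or 10.5% more in the γ-conglutin pool, and 17.9% of genes had a mean at least as far from 0. The pixels of its spot were even, with an SD of at most 10.3% of the mean in any channel.

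Srebf1 gave 2517 for vehicle and 2322 for γ-conglutin on array 1, and 1683 and 2368 on array 2. Its mean ratio, 0.12 ± 0.18, came from array 1 alone (0.25), since array 2 gave -0.00. The probe was named for a partial SREBP-1 cDNA, and its values were not split between the SREBP-1a and SREBP-1c transcripts.

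Thrsp encodes Spot 14, a small protein that is induced with lipogenesis by thyroid hormone and carbohydrate. Its signal was 20321 for vehicle and 19819 for γ-conglutin on array 1, and 11920 and 11786 on array 2. Its ratio was -0.06 on array 1 and -0.21 on array 2, a mean of -0.14 ± 0.11, or a difference of -9.05% from the vehicle pool. With median centring in place of loess the array 1 ratio was 0.27 and the array 2 ratio -0.44, so the arrays then had opposite signs. The 3 regulators thus did not share a direction: Mlxipl was positive and Thrsp negative on both arrays, and Srebf1 was split.

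**Figure D3:**
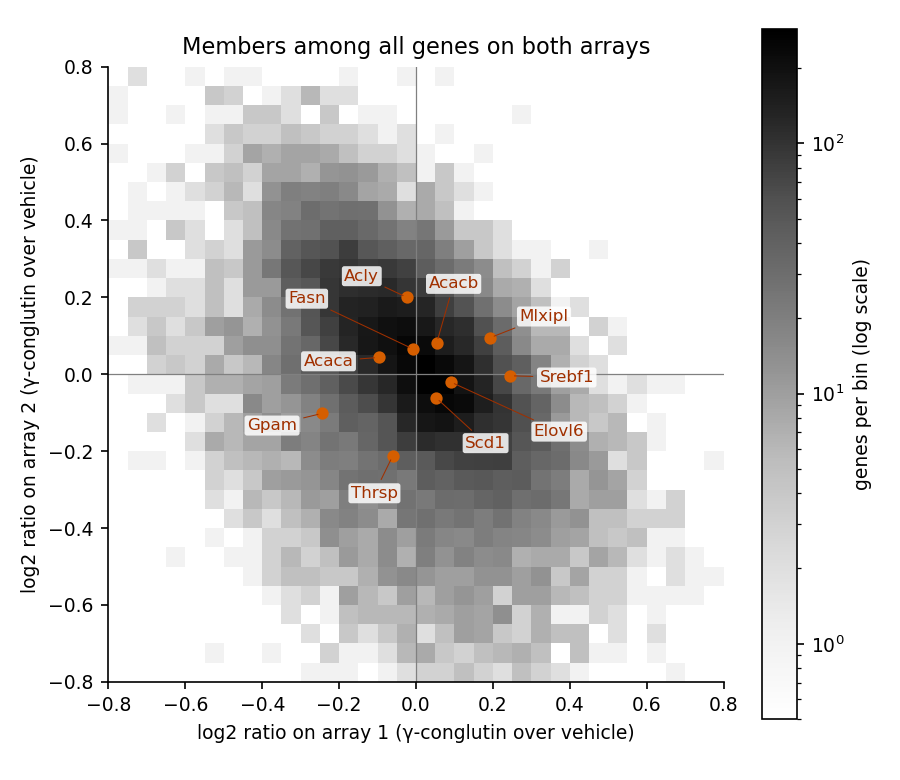
Log2 ratio of γ-conglutin over vehicle on array 1 (x axis) against array 2 (y axis), with all genes as grey bins (log colour scale), the 10 members in orange, and axes that stop at 0.8 and leave out 151 of 17157 genes. The grey cloud slopes downward (r = -0.45), Mlxipl and Acacb lie at the upper right of the origin, Gpam and Thrsp at its lower left, and all members lie inside the cloud.

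The signs of the means depended little on the processing for 8 of the 10 members. Over 12 settings with both arrays, Mlxipl ranged from 0.09 to 0.19 and kept a positive ratio on each array in 11 of them, all but the values without normalization. Gpam ranged from -0.19 to -0.07 and had a negative ratio on each array in 8. Thrsp ranged from -0.14 to -0.03 and had the same sign on each array in 11. Acacb ranged from 0.06 to 0.16, again with the same sign in 11. Settings that changed only filters or probe choice left Mlxipl, Gpam, Thrsp and Acacb as reported. Their shared signs under those settings repeat the main result. Srebf1 (0.09 to 0.18), Fasn (0.02 to 0.08) and, over the 11 settings that could measure them, Acly (0.08 to 0.25) and Elovl6 (0.03 to 0.09) kept a positive mean. Acaca and Scd1 changed sign, from -0.03 to 0.03 and from -0.01 to 0.05.

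**Figure D4:**
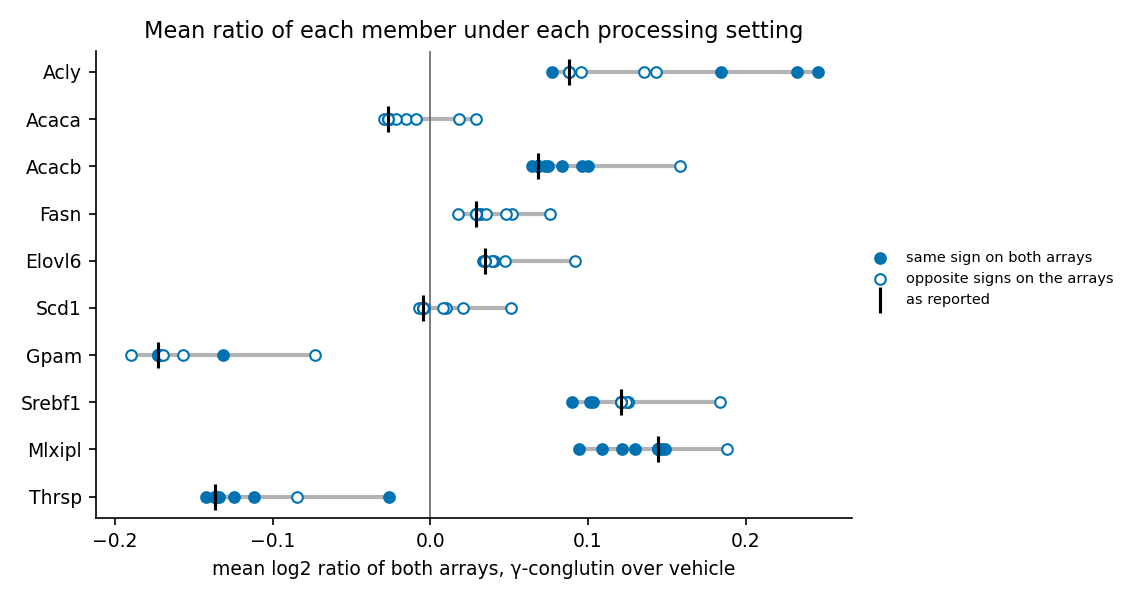
Mean log2 ratio over both arrays (x axis) for each member under each processing setting, filled where the arrays shared a sign and open where they did not, with a black tick at the reported value. Gpam and Thrsp stay below 0 and Acaca and Scd1 cross 0, while the other 6 members stay above 0.

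Other genes of the pathway were taken from 4 lists, and 0 of their measured genes were higher or lower by 1.5-fold on both arrays. The counts below include genes not above the empty-spot limit in all 4 channels. These were Acss2 and Cs (substrate supply), Elovl1 and Acsl5 (elongation), Dgat2 (glycerolipid) and Prkab1 (upstream control). Of the 11 measured genes for substrate and NADPH supply, 8 had a mean above 0, beside 53.9% of all genes, and the median was 0.02. The 11 lay between G6pd2, a glucose-6-phosphate dehydrogenase gene, at 0.15 ± 0.18, and the transketolase gene Tkt at -0.24 ± 0.48. For 2 of the 11 the arrays shared a sign, beside 32.3% of all genes.

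Of 20 genes on the list for elongation and desaturation, 15 had a mean above 0, beside 53.9% of all genes. The list also holds the acyl-CoA synthetase genes Acsl1, Acsl3, Acsl4 and Acsl5. The median was 0.01, as over all genes. The highest was Hacd1, a 3-hydroxyacyl-CoA dehydratase gene measured under its older symbol Ptpla, at 0.17 ± 0.13, and the lowest the acyl-CoA synthetase gene Acsl3 at -0.20 ± 0.21. For 3 of the 20 the arrays shared a sign, beside 32.3% of all genes.

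Glycerolipid assembly, the branch that Gpam opens, had 7 of 13 genes above 0, beside 53.9% of all genes. The median of the means was 0.00, while the medians on the single arrays were -0.04 and -0.04. Its highest member was the acyltransferase gene Agpat5 at 0.15 ± 0.03 and its lowest the phosphatidate phosphatase gene Lpin3 at -0.35 ± 0.43. Both arrays gave positive ratios for 2 of the 13 and negative ratios for 4, which is 6 of 13 with the same sign beside 32.3% of all genes.

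The upstream control list holds partners and upstream kinases of the SREBP and ChREBP factors. It had 13 of 20 genes above 0, beside 53.9% of all genes, and a median of 0.04. The nuclear receptor gene Rxra was highest at 0.14 ± 0.31, and Usf1, an E-box binding factor known to act at the Fasn promoter, lowest at -0.39 ± 0.33. Usf1 was negative on both arrays, at -0.16 and -0.63, past 1.5-fold on the second only. For 6 of the 20 the arrays shared a sign, beside 32.3% of all genes.

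**Figure D5:**
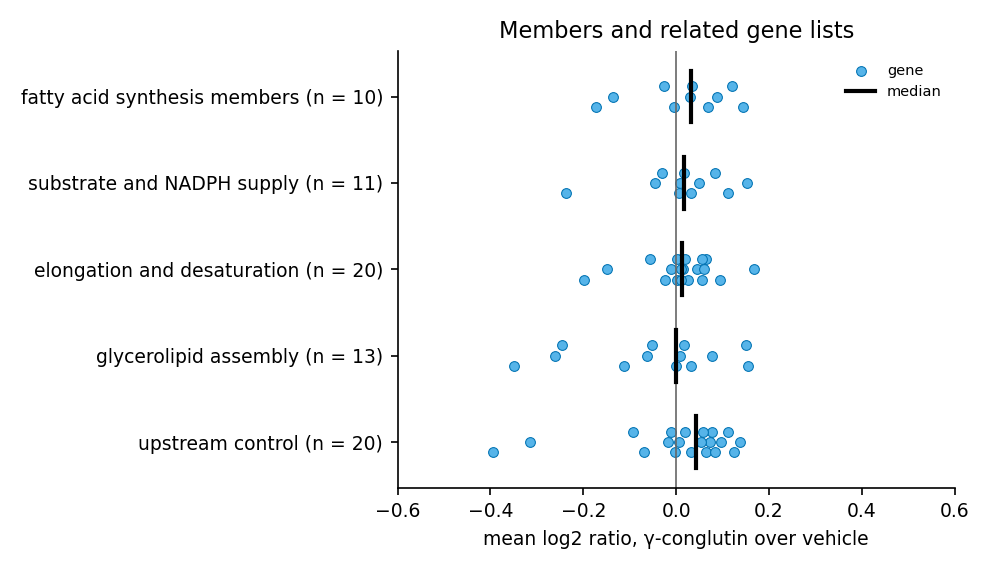
Mean log2 ratios (x axis) of the 10 members and of 4 lists of related genes, with points for genes and black bars for medians. The medians lie between 0.00 and 0.04, and the members span -0.17 to 0.14.

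Liver and other cell type markers were checked beside these values, since fat cells express the same enzymes. All 18 measured hepatocyte markers were above the empty-spot limit in all 4 channels. So were 10 of 10 adipocyte, 8 of 8 immune, 5 of 6 pancreas and 3 of 5 erythroid markers. Detection on this array thus did not separate liver from other tissues. Signal strength did not separate liver from pancreas or fat either. On array 1 the summed vehicle signal was 96844 over 18 hepatocyte, 55923 over 10 adipocyte and 49459 over 6 pancreas markers. It was lower for 8 immune (9679) and 5 erythroid markers (5953). The median signal was 31277 at the insulin spot Ins1 and 22390 at the albumin spot Alb. The reason was not tested. Summed signals are set side by side within a dye, and so across the 2 arrays, since they are not normalized for dye. For the hepatocyte markers the sum in Alexa555 was 96844 for vehicle and 93229 for γ-conglutin, and in Alexa647 87061 and 88896. For the adipocyte markers it was 55923 for vehicle and 58245 for γ-conglutin in Alexa555, and 41771 and 48727 in Alexa647. It was thus higher for γ-conglutin in each dye, but the rise in Alexa647 was not particular to adipocyte markers. In Alexa647 the pancreas sum was 31177 for vehicle and 38336 for γ-conglutin, the erythroid sum 3491 and 4315, and the immune sum 7353 and 7311. In Alexa555 these sums were 49459 and 49414 (pancreas), 5953 and 5239 (erythroid), and 9679 and 10352 (immune), vehicle first. Such sums are not normalized between arrays and weigh the brightest spots most. By log2 ratio the adipocyte markers were mixed, with 6 of 10 above 0, beside 53.9% of all genes. Cidec and Lpl were positive on both arrays, 2 of 10 beside 17.1% of genes, and Adipoq and Cfd negative, 2 of 10 beside 15.3%. The adipocyte median ratio was 0.03, with -0.06 on array 1 and 0.17 on array 2, and the hepatocyte median was -0.05. The part of either in the members' ratios was not tested.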

How the data were processed

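Per the file headers, the deposited scans hold the intensity of every spot and of its background in each dye, as means with SDs, and a background-subtracted net intensity. Per the file headers, they also hold the net ratio, with Alexa555 in the numerator. The deposited series table holds the log2 of that ratio. Scanner and image software: not given in the sources used here. Labels name both polyA and total RNA as the material.

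Main values start from raw and background intensities, background-corrected by normexp (offset 50) and normalized by global loess, without weight for 231 Gapdh control and 1235 empty spots, in limma 3.58.1 under R 4.3.3. Array signs were turned to γ-conglutin over vehicle. Spots of 1 accession and symbol were averaged, and a gene took its brightest probe. Probes had to exceed background by 2 SD in a channel of each array, which left 21577 and removed 56. Steps were tested on simulated data. Summaries used Python 3.11.15, numpy 2.4.6 and pandas 2.3.3, and figures matplotlib 3.10.9.

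The members and lists were chosen with earlier results of these data known. All members were named, and of each related list its highest and lowest gene. No gene is named for a pattern like a member's, because 2 technical repeats give no ranking. Genes were matched to GRCr8 names for promoters and for 5 older symbols of related genes. Alternatives covered background correction, normalization, starting values, filters, probe choice, size rule and each array alone. The number of arrays limits the precision.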

Additional observations from a re-analysis of the deposited data

How the results depend on the processing

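Counts of members higher and lower by the size rule were 0 and 0 under all settings run, at 0.32 on the log2 scale, at 1.5-fold and at 2-fold, and on each array alone. Of 130 values of single members under alternatives, 124 moved by less than their SD over the arrays and 6 by more, 5 of them for Acacb, whose SD was 0.02. The 124 include values that filters and probe choice left as reported, for all members measured except Acaca with the mean of all probes. They also include every value from each array alone. With 2 arrays, a single array always lies within that SD of the mean, so these values could not count as moved. The members' median of mean ratios was 0.0320. The medians on the single arrays had an SD of 0.00157, which is not the spread of that median. Most settings moved the median of mean ratios by more than 0.00157. It was 0.0363 with plain subtraction of background, 0.0352 with an offset of 10, 0.0351 with the deposited net intensities, 0.0255 with median centring, 0.0456 with print-tip loess, 0.0480 with the series table and 0.0839 without normalization. It was 0.0291 above the empty-spot limit (without Acly) and 0.0291 without spots of uneven pixels (without Elovl6), and 0.0200 to 0.0222 on each array alone. Without normalization, 1 member had the same sign on both arrays in place of 4, the median of all genes was -0.30 on array 1 and 0.42 on array 2, and the medians of elongation and glycerolipid genes were 0.0748 and 0.0349. The glycerolipid median was -0.0235 with median centring, 0.0164 with print-tip loess, 0.0372 with net intensities and 0.00813 with the mean of all probes. On each array alone, the list medians ran from -0.0450 to -0.0359 (glycerolipid), 0.0193 to 0.124 (substrate supply), -0.0288 to 0.0576 (elongation) and -0.0411 to 0.0593 (upstream control). The cause was not tested. Uneven spots and single Acacb spots were chosen after seeing the data. No paired analysis was possible because the pools of a pair share an array, whose ratio is the measurement, and a treatment has 1 pool. Signal over background limits Acly.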
